A study of Mus musculus with 23 samples.

Results

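The genes described here are Cst7, which encodes cystatin F, and 7 cathepsin genes, Ctsa, Ctsb, Ctsc, Ctsh, Ctsl, Ctss and Ctsz. They were chosen by name, as an inhibitor and the lysosomal proteases around it, with earlier results of these data known. Shares of all probe sets given beside counts of members are therefore for scale and are no test of the set. Each gene was read by 1 probe set, so that 8 of the 22203 probe sets on the array were members. Cathepsins are proteases that work mainly in the acid compartment of endosomes and lysosomes, where microglia break down what they engulf. Most of them are cysteine proteases held in check by cystatins. Cystatin F differs from other secreted cystatins in that it is carried to lysosomes and becomes active there after proteolysis, with cathepsin C among its known targets. In mouse models of amyloid and tau pathology, Cst7 and several cathepsin genes are known as part of the program of disease-associated microglia.

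The 23 samples were RNA of microglia isolated as CD45 and CD11b positive cells from cortex together with hippocampus, hybridised to mouse expression arrays. C57BL6 wild-type mice (WT) were sampled at 3 months (n = 4) and 12 months (n = 4). APPswlnd mice (APP), whose transgene encodes a human amyloid precursor protein with mutations of familial Alzheimer disease, were sampled at 3 months (n = 3) and 12 months (n = 4). P301S mice of the PS19 line (TAU), whose transgene encodes a human tau with a mutation of frontotemporal dementia, were sampled at 3 months (n = 4) and at a later age (n = 4), given as 12 months in the sample titles and 9 months in the age fields. The value of 9 months was used. The older APP and TAU samples are labelled active microglia and were isolated as cells positive for Clec7a, a lectin receptor, and they are called gated here. No Clec7a gate is named for WT or for the young strains, so strain, pathology and gate cannot be told apart between gated samples and WT at 12 months, and for TAU the age differs as well. The promoters of the transgenes, the sex of the mice and whether each sample came from a separate animal are not given in the sources used here. The titles number the samples as biological replicates, and p-values measure the spread between these samples.

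Values are log2 signals as the authors deposited them, and the array medians lay between 6.87 and 7.13. A level of background was taken in each group as the 95th percentile of 1464 probe sets for chemosensory receptors, which gave 7.72 to 8.11. All 8 members were above it on all 23 arrays. The cells carried the markers of microglia: 9 of 10 listed genes were measured and all 9 were above background in every group, with P2ry12 at 18.30 ± 0.09 in WT at 12 months, 17.03 ± 0.08 in gated APP and 16.88 ± 0.28 in gated TAU (SD, n = 4 each). Against WT at 12 months, 5 of these 9 were lower in gated APP and 6 in gated TAU (limma adjusted p under 0.05), P2ry12 among them, and none was higher. Tmem119 was lower by the most, at -3.31 and -2.89 on the log2 scale. Arrays of WT 12 months replicates 2 and 4 and of TAU 3 months replicate 4 had the smallest spread of signals, with SDs of 2.40, 2.41 and 2.40 where the other arrays reached up to 2.60, and where omitting the WT pair ended the call of a member, or of a pathway gene named by rule and above background, the value without it is given. Each difference below comes from limma fitted to all 23 samples and all probe sets, two-sided, and a gene is said to have risen or fallen at a Benjamini-Hochberg adjusted p under 0.05 over all probe sets. In RNA of sorted populations, fewer cells of a type and less RNA per cell cannot be told apart.

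Cst7 was low in the ungated groups and among the strongest risers of the array in both gated groups. Its log2 signals in WT were 9.04, 9.49, 8.63 and 8.25 at 3 months. They were 8.88, 8.98 and 8.02 in young APP and 9.49, 8.62, 8.16 and 8.15 in young TAU. In WT at 12 months they were 8.55, 9.62, 9.57 and 9.26. The ranges of these 4 groups overlap, and the lowest ungated sample, young APP replicate 3 at 8.02, stood at the edge of background. In gated APP the signals were 16.99, 17.21, 17.32 and 16.88, and in gated TAU 16.32, 16.35, 15.92 and 16.13. All 8 gated samples thus lay more than 6 log2 units above the highest ungated sample.

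Against WT at 12 months, Cst7 was 231-fold higher in gated APP (95% interval 149-fold to 356-fold; log2 fold change 7.85 ± 0.30, SE; limma adjusted p = 1.75e-14). In gated TAU it was 122-fold higher (78.9-fold to 188-fold; 6.93 ± 0.30, adjusted p = 1.91e-13). By log2 fold change it ranked 3 of 22203 probe sets in gated APP and 6 in gated TAU. The order of its group means was young TAU (8.61 ± 0.63), young APP (8.63 ± 0.53), young WT (8.85 ± 0.53), WT at 12 months (9.25 ± 0.49), gated TAU (16.18 ± 0.20) and gated APP (17.10 ± 0.20; SD, n = 3 in young APP and 4 elsewhere). Neighbours among the 4 ungated groups did not differ beyond their spread. The gated groups did not overlap, with every APP sample above every TAU sample, but their difference of 0.92 (95% interval 0.29 to 1.55) did not pass the test over all probe sets (adjusted p = 0.228).

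Cst7 is also known from T cells, natural killer cells and some myeloid cells, so markers of these cells were read on the same arrays. Of 11 listed T and NK cell genes 10 were measured. In the ungated groups all 10 were at background. In gated APP and gated TAU 9 of 10 were, among them Cd3e, a T cell receptor component, at 6.45 ± 0.28 and 6.35 ± 0.35, and Ncr1, an NK cell receptor, at 5.82 ± 0.60 and 5.81 ± 0.24. The exception was Klrb1c, the NK1.1 receptor gene, at 8.05 ± 0.31 in gated APP and 9.65 ± 0.43 in gated TAU against 8.03 ± 1.10 in WT at 12 months (SD, n = 4 each), and only the TAU difference passed (1.62, limma adjusted p = 0.0443). The mean of the T and NK list per array ran from 5.54 to 6.02 in WT at 12 months, from 5.76 to 5.88 in gated APP and from 5.90 to 6.11 in gated TAU. Of the monocyte markers Ccr2 and Ly6c2, the dendritic cell markers Flt3 and Zbtb46 and the macrophage marker Cd163, none was above background in any group, while Mrc1, of border macrophages, was at 10.20 ± 0.33 in WT at 12 months, 9.04 ± 0.45 in gated APP and 10.72 ± 0.72 in gated TAU. Ms4a7, of the same list, took other steps, from 8.73 ± 0.51 in WT at 12 months to 9.73 ± 0.39 in gated APP and 12.29 ± 1.39 in gated TAU (SD, n = 4 each), and only the TAU rise passed (3.56, limma adjusted p = 1.82e-05). Cbr2, also of border macrophages, fell in gated APP (-1.23, adjusted p = 0.0427). By array means of the whole lists, monocyte genes (1 of 6 measured above background in every group) ran from 6.58 to 7.32 in WT at 12 months, 6.62 to 7.20 in gated APP and 6.32 to 6.72 in gated TAU. Dendritic cell genes (1 of 8 above) reached 6.65, 6.11 and 6.36 at most. Border macrophage genes (4, 3 and 4 of 9 above) ran from 7.72 to 7.93, 7.45 to 7.65 and 7.99 to 8.78. Neutrophil genes (2, 1 and 1 of 7 above) ran from 7.54 to 9.08 in WT at 12 months and lower, from 7.08 to 7.26 and from 7.10 to 7.33, in gated APP and gated TAU. S100a8 of this list fell in APP (-2.535, limma adjusted p = 0.00861) and in TAU (-2.12, 0.0323). Cd209a of the dendritic list fell in APP (-1.035, 0.00315). These falls were between levels at background. Among astrocyte and endothelial genes, Gfap was at 7.91 ± 0.92 and Flt1 at 9.41 ± 0.87 in gated APP, against 5.48 ± 0.09 and 7.33 ± 0.32 in WT at 12 months and 5.89 ± 0.21 and 7.85 ± 0.32 in gated TAU (SD, n = 4 each). Both rose in gated APP against WT (2.43, limma adjusted p = 1.31e-05 and 2.08, 5.18e-05), while Pecam1 fell there (-1.17, 0.0247). No other astrocyte gene passed there. Slc1a2 and Aldoc stood lower in gated APP (10.01 ± 1.06 and 8.44 ± 0.69, SD) than in WT at 12 months (11.13 ± 0.59 and 9.33 ± 0.96). The remaining astrocyte genes were at background in both groups. Array means of the astrocyte list (6 genes) were 7.39 to 8.11 in WT at 12 months, 7.15 to 8.13 in gated APP and 6.92 to 7.89 in gated TAU, and those of the endothelial list (5 measured) 6.36 to 7.18, 6.39 to 8.06 and 6.35 to 6.67. Neuron genes (3 of 7 above background in each of these groups) had array means of 6.76 to 7.60, 6.77 to 7.62 and 7.08 to 8.59. For oligodendrocyte genes (1 of 4 measured above) they were 6.36 to 7.57, 6.48 to 6.96 and 6.40 to 7.05. No gene of these lists passed in gated APP or gated TAU against WT at 12 months. The part of other cells in the member genes was not tested.

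**Figure D1:**
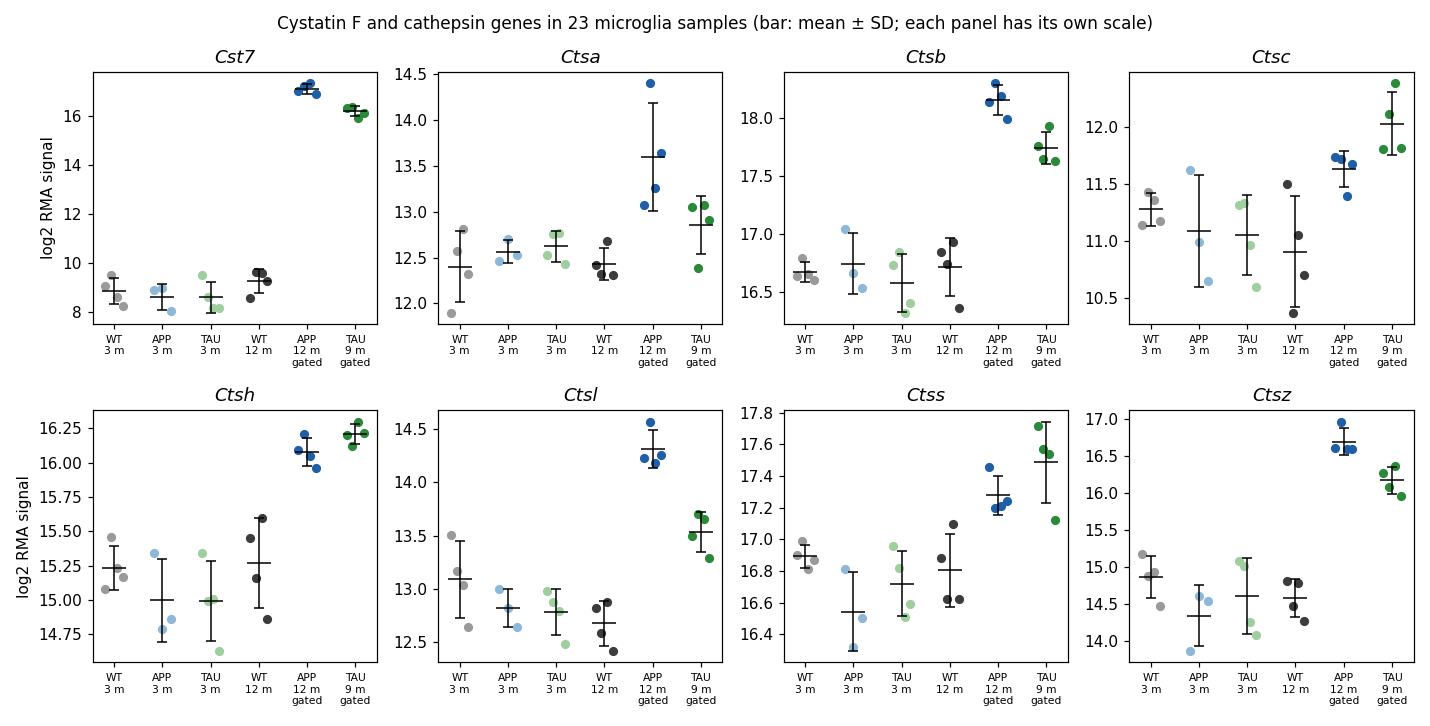
Log2 RMA signal (vertical axes, a separate scale per gene) of Cst7 and the 7 cathepsin genes in each of 23 samples, by group; points are samples and bars give the mean ± SD. Cst7 stands at 8.02 to 9.62 in the ungated groups and at 15.92 to 17.32 in the gated groups, while the cathepsins start from higher signals of their own probe sets and move by smaller steps.

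The stretch upstream of the start site shows what the letters of these genes hold for factors often named for lysosomal and myeloid genes. RefSeq promoter windows (GRCm38.p6) matched 6 of the 8 members in 7 entries, with none for Ctsb and Ctsh, and the 250 bases before each start were searched on both strands for CACGTG, the E-box core that is also the core of the element bound by TFEB, and for GGAAGT, a core of ETS factors such as PU.1. Of all 32851 windows of this length, 6.02% held CACGTG and 19.7% held GGAAGT. The windows of Cst7, of Ctsl and of the downstream of 2 start sites listed for Ctsa are printed 5′ to 3′ on the gene's strand, because they belong to the gene with the largest change, to the cathepsin that differed between the gated groups, and to the cathepsin with a match close to its start. Capitals mark the matches.
Cst7, chr2:150570165-150570414, plus strand: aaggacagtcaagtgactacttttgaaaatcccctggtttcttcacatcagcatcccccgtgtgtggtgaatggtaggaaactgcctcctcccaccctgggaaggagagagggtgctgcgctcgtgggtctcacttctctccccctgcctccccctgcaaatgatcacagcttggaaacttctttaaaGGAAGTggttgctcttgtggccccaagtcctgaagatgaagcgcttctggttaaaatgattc
Ctsl, chr13:64370521-64370770, minus strand: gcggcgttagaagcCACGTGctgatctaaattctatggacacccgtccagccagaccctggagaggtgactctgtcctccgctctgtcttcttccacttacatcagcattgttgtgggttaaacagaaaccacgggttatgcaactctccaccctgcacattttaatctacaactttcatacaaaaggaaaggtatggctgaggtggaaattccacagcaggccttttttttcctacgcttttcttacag
Ctsa, chr2:164833523-164833772, plus strand: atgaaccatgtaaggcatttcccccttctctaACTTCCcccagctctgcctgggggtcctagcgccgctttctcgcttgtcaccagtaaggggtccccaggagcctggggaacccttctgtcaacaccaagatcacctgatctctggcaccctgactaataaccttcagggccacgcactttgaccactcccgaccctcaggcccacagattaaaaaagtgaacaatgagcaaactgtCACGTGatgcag
In Cst7 the match to GGAAGT spans bases -62 to -57 from the start site. In Ctsl the match to CACGTG spans bases -236 to -231, and in Ctsa bases -12 to -7, where the capitals at -218 to -213 are GGAAGT read on the other strand. Ctsc held 1 match to GGAAGT on the other strand, at -151 to -146, and the windows of Ctss, Ctsz and the upstream start of Ctsa held neither. A match is a run of letters, not a measured site.

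The cathepsins rose with Cst7 in gated APP, but by 0.81 to 2.11 log2 units where they passed the test. Of the 8 members 6 rose and none fell, where 5.60% of all probe sets rose and 3.48% fell. The median log2 fold change of the 8 members was 1.30, against -0.06 over all probe sets. Ctsz, Ctsl, Ctsb, Ctsa and Ctsh rose, and Ctsc and Ctss did not pass the test. All 4 gated APP samples lay above all 4 WT samples at 12 months for 7 of the 8 members, Ctsc being the exception, where 6.72% of all probe sets were separated in this way.

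Ctsz encodes cathepsin Z (also called X), a carboxypeptidase that can be secreted and bind integrins. Its log2 signals were 14.81, 14.47, 14.79 and 14.27 in WT at 12 months and 16.61, 16.97, 16.60 and 16.60 in gated APP. This was 4.32-fold higher (95% interval 3.12-fold to 5.98-fold; 2.11 ± 0.23 on the log2 scale, SE; limma adjusted p = 6.45e-07). Gated TAU stood between, at 16.28, 16.09, 16.37 and 15.97, with no overlap with either group, and was 3.02-fold higher than WT (adjusted p = 4.59e-05). Of the 7 cathepsins Ctsz had the largest log2 fold change in both gated groups.

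Ctsl encodes cathepsin L, an endopeptidase with broad activity in lysosomes. Signals were 12.82, 12.59, 12.88 and 12.42 in WT at 12 months, 14.23, 14.57, 14.18 and 14.26 in gated APP and 13.50, 13.70, 13.66 and 13.29 in gated TAU. The 3 groups did not overlap. Ctsl rose 3.10-fold in gated APP (adjusted p = 8.37e-07) and 1.82-fold in gated TAU (adjusted p = 0.00284). Young WT reached 13.51, so that gated TAU overlapped with the ungated samples as a whole.

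Ctsb encodes cathepsin B, which cuts both within proteins and from their carboxyl end. It went from 16.84, 16.74, 16.93 and 16.36 in WT at 12 months to 18.14, 18.30, 18.19 and 17.99 in gated APP and 17.76, 17.65, 17.93 and 17.63 in gated TAU. All gated samples lay above all ungated ones, of which young APP replicate 1 was the highest at 17.04. The rises were 2.71-fold (adjusted p = 1.03e-06) and 2.03-fold (adjusted p = 0.000146).

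Ctsh encodes the aminopeptidase cathepsin H. It was at 15.45, 15.16, 15.60 and 14.86 in WT at 12 months, 16.09, 16.21, 16.05 and 15.96 in gated APP and 16.20, 16.12, 16.30 and 16.22 in gated TAU. The gated groups overlapped with each other and stood above every ungated sample. The rises were 1.75-fold in APP (adjusted p = 0.00332) and 1.92-fold in TAU (adjusted p = 0.00104).

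Ctsa, Ctsc and Ctss were less uniform. Ctsa encodes a serine carboxypeptidase that protects lysosomal sialidase and beta-galactosidase, and so is not a target of cystatins by class. Its signals were 13.07, 14.40, 13.26 and 13.64 in gated APP against 12.42, 12.32, 12.68 and 12.31 in WT, a 2.23-fold rise (adjusted p = 0.00195). In gated TAU they were 13.05, 12.39, 13.07 and 12.91, where replicate 2 fell among the WT samples and the difference of 0.42 (95% interval -0.07 to 0.91) did not pass (adjusted p = 0.312).

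Ctsc encodes cathepsin C, a dipeptidyl peptidase that activates granule serine proteases and that cystatin F can inhibit. It was spread widely in WT at 12 months, at 11.50, 10.37, 11.05 and 10.70. In gated APP it was at 11.73, 11.72, 11.39 and 11.67, overlapping with WT, and in gated TAU at 11.80, 12.11, 12.38 and 11.81, above every other sample of the study. The difference from WT was 0.72 ± 0.23 on the log2 scale in APP (SE; adjusted p = 0.055, not called) and 1.12 ± 0.23 in TAU, a 2.17-fold rise (adjusted p = 0.00291). In APP the call was close to the threshold. It was made in 5 of 23 fits that left out 1 sample, with adjusted p between 0.0145 and 0.216: without WT 12 months replicate 1 (0.0145) or 3 (0.0496), young APP replicate 1 (0.0372) or 3 (0.0482), or young TAU replicate 4 (0.045). It was also made with quantile normalization (0.69, adjusted p = 0.0338), with a filter on dim probe sets (0.0458) and with the mean of Y-linked genes as covariate (0.80, 0.0297).

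Ctss encodes cathepsin S, an endopeptidase that stays active at neutral pH and trims the invariant chain of MHC class II. It went from 16.88, 16.62, 17.10 and 16.62 in WT at 12 months to 17.46, 17.20, 17.21 and 17.24 in gated APP and 17.72, 17.57, 17.54 and 17.12 in gated TAU. Each gated group lay above WT by a small step, 0.47 ± 0.16 in APP (adjusted p = 0.0733, not called) and 0.68 ± 0.16 in TAU (1.60-fold, adjusted p = 0.00848). Without WT 12 months replicate 3 the APP difference was 0.57 and passed (adjusted p = 0.0291), as it did with an intensity trend (0.0463) and with the Y-linked covariate (0.56, 0.0184). With only these groups in the fit the TAU difference missed the threshold (adjusted p = 0.0787).

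In gated TAU 7 of the 8 members rose and none fell, where 5.09% of all probe sets rose and 3.67% fell, and the median over the 8 members was 0.98 against -0.05 over all probe sets. All 4 gated TAU samples lay above all 4 WT samples for every member but Ctsa, as did 6.38% of probe sets. The WT samples are shared by both comparisons. For Cst7, Ctsb, Ctsh, Ctss and Ctsz, 5 of the 8 members, all 8 gated samples lay above all 15 ungated samples, as did 2.77% of probe sets. When the fit omitted both replicate 2 and replicate 4 of WT at 12 months, the members that rose in TAU were 4 in place of 7: Ctsc (0.75, adjusted p = 0.1), Ctsl (0.69, 0.0703) and Ctss (0.50, 0.158) no longer passed, and Ctsh no longer passed in APP (0.55, 0.122). Of all probe sets, 518 then rose in TAU in place of 1131, and 627 in APP in place of 1243. Calls in either direction were 1227 in place of 1946 and 1264 in place of 2015, so the counts shrank mostly on the side of rises. The part of the array spread in these rises was not tested.

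**Figure D2:**
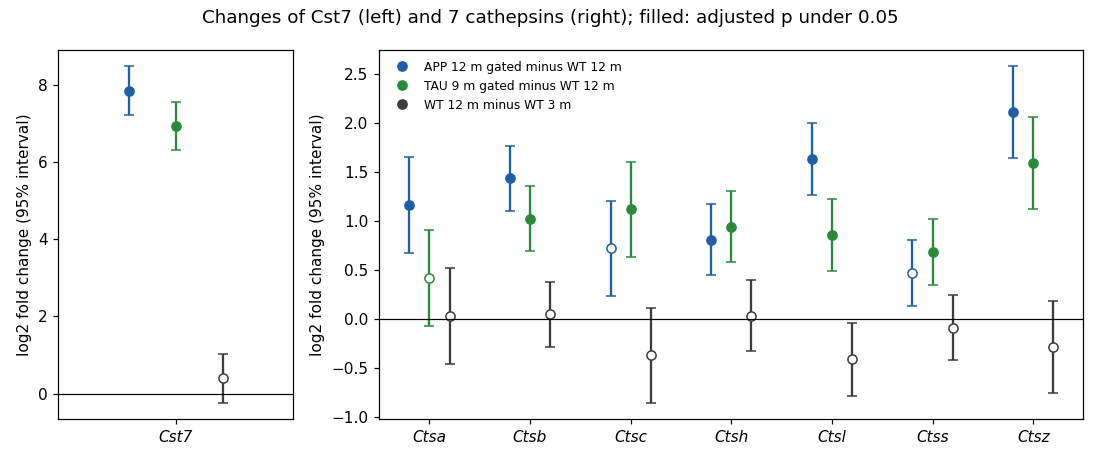
Log2 fold changes with 95% intervals (vertical axes, separate scales) of Cst7 on the left and the 7 cathepsins on the right, for gated APP and gated TAU against WT at 12 months and for WT at 12 against 3 months; filled points passed an adjusted p of 0.05. Cst7 is near 7 to 8 in the gated groups, the cathepsins between 0.42 and 2.11, and the WT age differences between -0.41 and 0.40 with none filled.

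The gated groups were compared directly, although strain, transgene and age (12 and 9 months) differ along with the kind of pathology and cannot be told apart from it. Only Ctsl passed, among 8 members, where 0.928% of all probe sets passed in either direction. It was 1.71-fold higher in gated APP (95% interval 1.32-fold to 2.21-fold; 0.77 ± 0.18 on the log2 scale, SE; limma adjusted p = 0.0323). The call was lost with each array centred on its median (0.79, adjusted p = 0.0724), with quantile normalization (0.66, 0.0511) and with only these groups in the fit (0.77, 0.133). It was also lost without gated APP replicate 1 (0.80, adjusted p = 0.0549), 2 (0.69, 0.137) or 4 (0.79, 0.068) and without gated TAU replicate 1 (0.76, 0.0979) or 4 (0.69, 0.114). It was kept with an effect of the replicate number shared by all 6 groups (0.77, adjusted p = 0.01), which is not a paired fit of these groups alone. Deviations of their same-numbered samples correlated (0.18 to 0.42), but all fits of these groups alone were unpaired. How the call fares in a paired fit was therefore not tested.

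The other 7 members gave intervals that allow moderate differences in named directions. Cst7 (0.29 to 1.55), Ctsa (0.25 to 1.23), Ctsb (0.08 to 0.74) and Ctsz (0.05 to 0.99) had 95% intervals above 0 before adjustment, APP over TAU on the log2 scale. Their adjusted p ran from 0.208 to 0.461. Of all 22203 probe sets, 2039 had an unadjusted p under 0.05 in either direction. Every gated APP sample was above every gated TAU sample for Cst7, Ctsb, Ctsl and Ctsz, where 2.56% of probe sets were so separated. Ctsc pointed the other way, by -0.40 (-0.88 to 0.09; adjusted p = 0.677), with every TAU sample above every APP sample, a pattern held by 2.14% of probe sets. Ctsh (-0.50 to 0.23; adjusted p = 0.928) and Ctss (-0.54 to 0.12; 0.794) overlapped. The upper bounds were thus largest for Cst7 and Ctsa.

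To set the inhibitor against the proteases, the log2 signal of each cathepsin was subtracted from that of Cst7 on the same array. Signals of different probe sets have no common scale, so only the change of this difference between groups can be read, not which gene is more abundant. In gated APP the change of Cst7 exceeded that of Ctsz by 5.74 log2 units, of Ctsl by 6.22, of Ctsb by 6.41, of Ctsa by 6.69, of Ctsh by 7.04, of Ctsc by 7.13 and of Ctss by 7.38. In gated TAU the excess was 5.34 over Ctsz, 5.81 over Ctsc, 5.91 over Ctsb, 5.99 over Ctsh, 6.07 over Ctsl, 6.25 over Ctss and 6.51 over Ctsa. The pooled SD of these differences within groups was 0.41 to 0.72. Gated and WT samples did not overlap for any of the 7, which the step in Cst7 alone sets: Cst7 minus any other probe set was separated in this way for 22196 of 22202 probe sets in APP and 22190 of 22202 in TAU. No test was made on these differences.

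Between the gated groups the within-array differences were as follows. Cst7 minus Ctsc was 5.47 ± 0.33 in gated APP (range 5.21 to 5.93) and 4.16 ± 0.43 in gated TAU (3.54 to 4.52), against -1.66 ± 0.93 in WT at 12 months (SD, n = 4 each). Cst7 minus Ctss was -0.18 ± 0.28 (-0.47 to 0.11) in gated APP and -1.31 ± 0.27 (-1.62 to -0.99) in gated TAU. Cst7 minus Ctsl was 2.79 ± 0.24 in gated APP and 2.64 ± 0.27 in gated TAU. Against Ctsb, Ctsc, Ctsh and Ctss the ranges of the gated groups did not overlap, with APP higher, and against Ctsa, Ctsl and Ctsz they did. Cst7 minus another probe set was separated in this way for 60.2% of all other probe sets, so 4 of 7 is near that share.

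**Figure D3:**
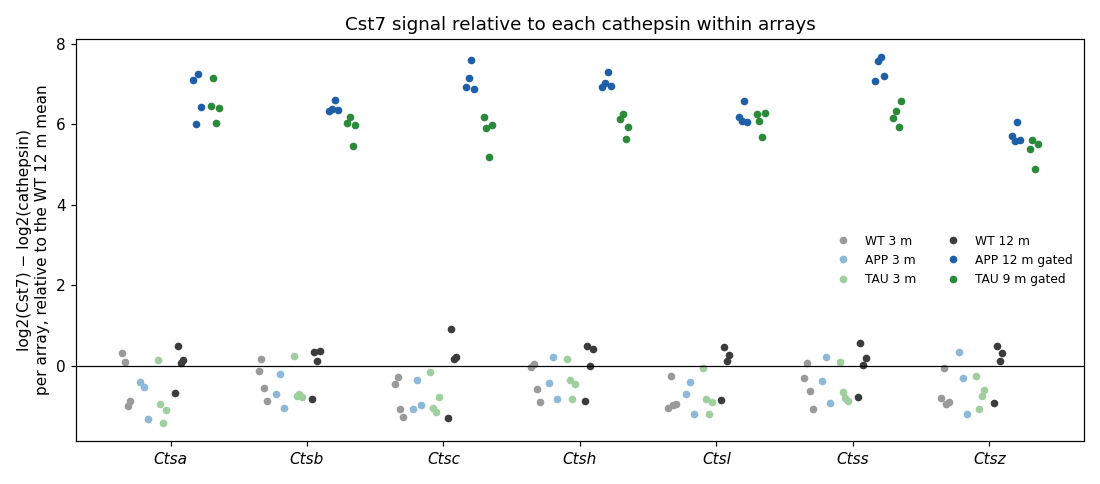
Log2 signal of Cst7 minus that of each cathepsin on the same array, relative to the mean of WT at 12 months (vertical axis), for each of the 7 cathepsins (horizontal axis) and 23 samples coloured by group. The 8 gated samples stand apart from all ungated samples for every cathepsin, by mean shifts of 5.34 to 7.38, and gated APP is above gated TAU without overlap against Ctsb, Ctsc, Ctsh and Ctss.

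Without pathology or gate, no member passed the test. WT at 12 months against 3 months compares ages with no transgene and no gate named, and with limma 0 of 8 members passed, where 0.0360% of all probe sets did. Array spread differed too, being among the smallest in WT 12 months replicates 2 and 4 (SD 2.40 and 2.41). Without these, Ctsc went from -0.37 to 0 and Ctss from -0.09 to 0.10. At an unadjusted p under 0.05 only Ctsl of the 8 members differed, by -0.41 (95% interval -0.78 to -0.04), beside 1987 of all 22203 probe sets. Cst7 differed by 0.40 (-0.23 to 1.02), with 9.62, 9.57 and 9.26 in 3 of 4 older samples and a highest young value of 9.49. The intervals of all 7 cathepsins lay between -0.85 and 0.52.

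The comparison at 3 months asks whether the strains differ from WT at an age labelled as before pathology. None of the 8 members passed in young APP or young TAU with limma (0% of all probe sets passed in either). At an unadjusted p under 0.05 there was 1 in APP, Ctsz, and 0 in TAU, beside 648 and 922 of all 22203 probe sets. Ctsz signals were 13.87, 14.61 and 14.55 in young APP against 15.18, 14.88, 14.93 and 14.48 in young WT, with overlap through WT replicate 4. The difference was -0.52 (95% interval -1.03 to -0.02; adjusted p = 1). Cst7 differed by -0.23 (-0.90 to 0.45) in APP and -0.25 (-0.87 to 0.38) in TAU, so that the intervals of this fit end at 0.45 and 0.38 on the high side. With the mean of Y-linked genes as covariate the differences were 0.41 and 0.27, neither called, so these intervals do not bound them under every fit.

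Measured within each strain, where gate and age change together, most members rose. Against young APP, 7 of 8 members rose in gated APP, where 6.19% of probe sets rose and 5.95% fell, with Cst7 at 8.47 ± 0.33, Ctsz at 2.35 ± 0.24, and Ctsc not called (0.54 ± 0.25, SE; adjusted p = 0.195). The call of Ctss (0.73, adjusted p = 0.00583) was lost without young APP replicate 2 (0.62, adjusted p = 0.0571). It was also lost with quantile normalization (0.42, 0.0856) and with the Y-linked covariate (0.54, 0.0699). The call of Ctsa (1.03, 0.00827) was lost with only these groups in the fit (0.068), while Ctsc passed with array weights (0.87, 0.00667). Against young TAU, 7 of 8 rose in gated TAU, where 6.67% rose and 6.81% fell, with Cst7 at 7.58 ± 0.30, Ctsz at 1.57 ± 0.23, Ctsh at 1.22 ± 0.18 and Ctsa not called (0.23 ± 0.24; adjusted p = 0.599). Taking the WT change with age away from the change in each strain left 5 of 8 members in APP, where 2.82% of probe sets were higher and 3.80% passed in either direction. It left 7 of 8 in TAU, where 2.60% were higher, 1.15% lower and 3.75% passed in all. With replicates 2 and 4 of WT at 12 months omitted, the TAU count was 3, as Ctsc (0.98, adjusted p = 0.153), Ctsh (0.93, 0.0637), Ctsl (0.995, 0.0712) and Ctss (0.67, 0.205) no longer passed, and Ctsh no longer passed for APP (0.79, 0.142). Of all probe sets, 280 were then higher for TAU in place of 577, and 343 for APP in place of 627. With array weights the APP count was 8, with Ctsa (1.26, 0.0127), Ctsc (1.21, 0.0213) and Ctss (0.86, 0.0117) added. With the Y-linked covariate Ctsh for APP (0.79, 0.186) and Ctsc (1.21, 0.0661) and Ctss (0.70, 0.11) for TAU no longer passed. The TAU call of Ctss was also lost with quantile normalization (0.62, 0.0897) and with only these groups in the fit (0.0555). For APP, Ctss passed with an intensity trend (0.82, 0.0315) and with the filter on dim probe sets (0.0468).

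Other genes of the same system were taken from lists named by role, and most of them did not pass the test. Among 15 measured of 16 other cathepsin genes and relatives, 1 rose and 1 fell in gated APP and 1 rose in gated TAU, with medians of -0.23 and -0.16. Over all probe sets 9.08% passed in gated APP and 8.76% in gated TAU, in either direction. The riser was Ctse, the aspartic protease cathepsin E, at 8.12 ± 0.31 in gated APP, 6.34 ± 0.23 in gated TAU and 4.83 ± 0.23 in WT at 12 months (SD, n = 4 each), of which only the APP mean was above background. It rose by 3.29 ± 0.17 (SE; adjusted p = 5.3e-12) in APP. Against the background level of WT in place of its signal, this is at least 1.01-fold. It was also 1.78 ± 0.17 higher in gated APP than in gated TAU (adjusted p = 1.15e-06), or at least 1.20-fold against background. Cts8, a placental cathepsin gene, fell in APP between levels at background.

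Of the other inhibitors, 22 of 23 listed genes were measured, and 1 rose and 1 fell in gated APP and 2 rose in gated TAU. These counts are near the shares over all probe sets, 9.08% in APP and 8.76% in TAU in either direction. Cstb, the cytosolic cystatin B, was the riser in both, from 13.66 ± 0.23 in WT at 12 months to 15.25 ± 0.11 in APP and 15.77 ± 0.38 in TAU (SD, n = 4 each). This was 1.60 ± 0.25 (SE; adjusted p = 0.000109) and 2.11 ± 0.25 (adjusted p = 3.83e-06). Cst13 in APP and Ahsg in TAU passed between levels at background. Medians were -0.17 and -0.01, against -0.06 and -0.05 over all probe sets.

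Among 21 genes for processing of cathepsins, their delivery to lysosomes and the lysosomal membrane and pump, 6 rose and 3 fell in gated APP and 5 rose and 2 fell in gated TAU, with medians of 0.35 and 0.23. Of all probe sets 5.60% rose and 3.48% fell in APP, and 5.09% rose and 3.67% fell in TAU. Gnptab, which encodes the transferase that starts the mannose phosphate tag on lysosomal enzymes, rose by 1.97 ± 0.23 in APP (adjusted p = 2.48e-06) and 1.5 ± 0.23 in TAU (adjusted p = 0.000134). Lamp1, of the lysosomal membrane, rose by 1.01 ± 0.18 and 0.78 ± 0.18 (SE), and Lamp2 by 0.81 ± 0.14 in APP. Mitf, a factor related to TFEB, rose by 0.84 ± 0.23 in APP and 1.20 ± 0.23 in TAU. The APP call of Mitf was lost without WT 12 months replicate 2 (0.76, adjusted p = 0.0773) or 4 (0.61, 0.108), and without gated APP replicate 1 (0.75, 0.0771) or 2 (0.74, 0.0687). With only these groups in the fit it was lost too (0.153). Omitting replicates 2 and 4 of WT at 12 months together took Mitf to 0.37 in APP (0.461) and 0.73 in TAU (0.0652), and Lamp1 in TAU to 0.73 (0.061).

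The 3 genes that fell in gated APP were Lgmn, Sort1 and Atp6ap2, an accessory protein of the proton pump (-0.57, adjusted p = 0.0466), and Lgmn and Sort1 also fell in gated TAU. Atp6ap2 falls outside the rule for named genes, was named after its value was seen, and was not run under the alternatives. Lgmn encodes legumain, a protease that cleaves the single chains of several cathepsins, and was at 19.26 ± 0.03 in WT at 12 months, 18.74 ± 0.15 in gated APP and 18.68 ± 0.11 in gated TAU (SD, n = 4 each). It fell by 0.52 (adjusted p = 0.00617) and fell by 0.58 (adjusted p = 0.00289) on the log2 scale, near the top of the signal range of 3.12 to 19.85. With only the groups of each contrast in the fit these falls missed the threshold (adjusted p = 0.107 and 0.0585), as did the APP fall with replicates 2 and 4 of WT at 12 months omitted (-0.51, 0.0557). Sort1, the sorting receptor sortilin, fell by 1.07 in APP (adjusted p = 0.00237) and fell by 0.87 in TAU (adjusted p = 0.0156), the latter not without gated TAU replicate 2 (-0.71, adjusted p = 0.0674) or with only these groups in the fit (0.0588).

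Of 13 measured partners and substrates (of 15 listed), 1 rose and 1 fell in gated APP and none passed in gated TAU, where 9.08% and 8.76% of all probe sets passed in either direction. The riser was App (0.95 ± 0.29, SE; adjusted p = 0.0426), read by a probe set for the mouse gene, and its call was lost in 10 of 23 fits that left out 1 sample, over which the adjusted p ran from 0.0134 to 0.185. Its difference was 0.71 (adjusted p = 0.185) without WT 12 months replicate 2, and 0.90 (0.107), 1.02 (0.0609), 0.88 (0.0976), 0.98 (0.0775) and 0.93 (0.0768) without WT 12 months replicate 4 and gated APP replicates 1, 2, 3 and 4. It stayed at 0.95 without young WT replicate 4 (adjusted p = 0.051), young APP replicate 3 (0.0523), young TAU replicate 3 (0.0525) or gated TAU replicate 1 (0.0502). Gzmb, a granzyme gene of the kind that cathepsin C activates, fell between levels at background. The calls of Cts8, Cst13, Ahsg and Gzmb, all at background, were each lost when single samples were left out. The App call was also lost with arrays centred (0.0509), with only these groups in the fit (0.0774) and with replicates 2 and 4 of WT at 12 months omitted (0.51, 0.487). Whether its probe set reads the human transgene as well was not tested.

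**Figure D4:**
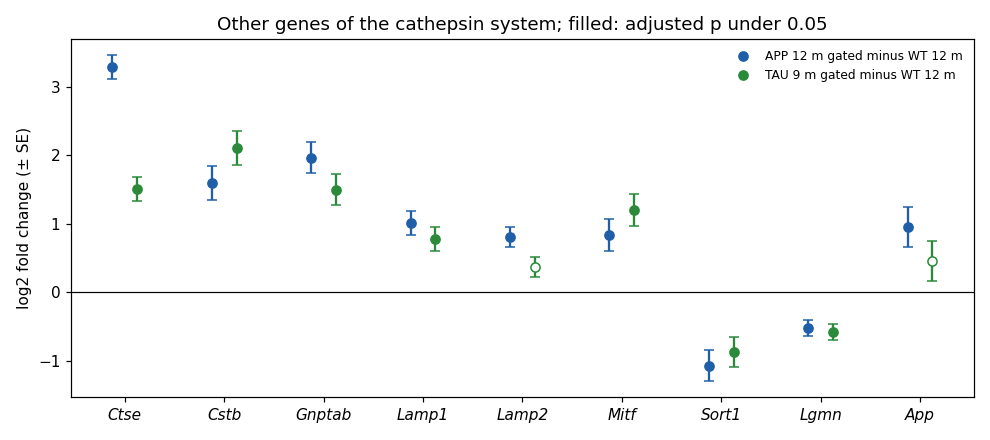
Log2 fold change ± SE (vertical axis) in gated APP and gated TAU against WT at 12 months of the named genes that passed in a comparison and were above background in at least 1 group of it; filled points passed an adjusted p of 0.05. Ctse, Cstb, Gnptab, Lamp1, Lamp2, Mitf and App are above 0, and Sort1 and Lgmn below 0 in both strains.

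The genes whose pattern over the groups was most like that of a member were found by the root mean square difference between log2 changes from young WT in the 5 other groups. For Cst7, whose own root mean square change was 4.94, these were Axl (difference 0.56), Apoe (0.94), Itgax (1.17), Igf1 (1.43) and Ifi204 (1.61). Axl stood at 7.35 in gated APP and 7.67 in gated TAU as a change from young WT, and Igf1 at 7.89 and 4.23, where Cst7 stood higher in APP than in TAU. For Ctsl (own change 0.64) the nearest were Scpep1, Efr3b, Tmem189, Rcbtb2 and Naglu, at differences of 0.07 to 0.12. For Ctsb (0.82) they were Fam162a, Ncstn, Xylt1, Ndufa2 and Uqcr10, at 0.09 each. For Ctsz (1.05) they were Use1, Ssr4, Arrdc4, Glmp and Cd99, at 0.14 to 0.19. For Ctsh (0.60) they were Cetn2, Ndufb8, Sin3b, Bak1 and C1qc, at 0.04 to 0.06, and for Ctsa (0.58) Ergic1, Ldha, Pgk1, Man2a1 and Yipf7, at 0.11 to 0.12. The median SE over all probe sets was 0.23 for young TAU against young WT. All distances named for cathepsins lay under it, so the order and choice of these neighbours are not resolved. Ctsc and Ctss changed by less than 0.5 in this measure, and no genes were named for them.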

How the data were processed

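Microglial RNA of 23 samples in 6 groups was measured on 1-colour arrays, from 5 ng of total RNA with a 3′ labelling kit, per the labels' protocols. For each probe set the authors deposited a log2 signal, obtained by RMA, and the submitters' processing notes name the Transcriptome Analysis Console. Versions, parameters and build are not given in the sources used here. As RMA normalizes arrays against each other, the signals have no absolute scale, and the number of arrays limits the precision.

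All 22203 probe sets entered limma 3.58.1 (R 4.3.3): a mean per group, eBayes without trend, 17 residual and 5.11 prior degrees of freedom, no filter, Benjamini-Hochberg over all probe sets of each of 10 contrasts. Gene symbols came with 19572 probe sets, while 2631 had none. No 2 arrays were duplicates: the smallest median absolute difference between any pair of arrays was 0.2 log2 units. The fit was also run on simulated data, whose outcome is not given here. The replicate numbers in the labels were checked as pairs: deviations from group means correlated over 0.1 in 28 of 55 same-numbered pairs and 40 of 165 others. Of the groups compared with each other, gated APP and gated TAU had every same-numbered pair over 0.1 (4 of 4, 0.18 to 0.42). Their numbers thus pair by this check of the data. The other comparisons had pairs at or under 0.1 and were taken as unpaired. The main fit paired no samples, including those of the gated groups, and no paired fit of the gated groups alone was run. Named genes were all 8 members, per member the 5 nearest in pattern, up to 6 called genes per pathway list, and the first markers of each cell type. Alternatives were array centring, quantile normalization, fits of the contrast's groups alone, an intensity trend, a filter on dim probe sets, array weights, a replicate block, a Y-linked covariate and leaving out samples. The members and lists were chosen with earlier results of these data known.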

Additional observations from a re-analysis of the deposited data

Results flagged for a closer look

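Among 40 sets of 4 samples (8 members in 5 groups), 2 held a sample far from the others, and chance flags about 1 in 20. They were Ctss in gated APP, where replicate 1 stood at 17.46 and the others at 17.20 to 17.24, and Ctsz in gated APP, where replicate 2 stood at 16.97 and the others at 16.60 to 16.61.

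Between the gated groups, Ctsl differed by 0.77 on the log2 scale, higher in APP (limma adjusted p = 0.0323). The change within a strain, from young to older gated samples, differed from that of WT, for which no gate is named, in 5 members for APP and 7 for TAU. For APP the excess was 8.08 for Cst7, 2.63 for Ctsz, 1.90 for Ctsl, 1.36 for Ctsb and 1.05 for Ctsh (limma adjusted p from 4.6e-11 to 0.0201). For TAU it was 7.18 for Cst7, 1.85 for Ctsz, 1.35 for Ctsc, 1.19 for Ctsh, 1.17 for Ctsl, 1.12 for Ctsb and 0.86 for Ctss (adjusted p from 1.28e-10 to 0.0363). Gate and age change together in these comparisons. When single samples were left out, the APP call of Ctsh was lost in 3 of 23 fits (without young WT replicate 2 or young APP replicate 2 or 3, adjusted p up to 0.0763). The TAU call of Ctsc was lost in 3 (without young TAU replicate 4, WT 12 months replicate 2 or gated TAU replicate 3, up to 0.0568). The TAU call of Ctss was lost in 12, spread over all 4 groups of the comparison (up to 0.0911).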

How the results depend on the processing

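Cst7 kept its direction and its call in both gated groups against WT at 12 months under all alternatives run, at 6.81 to 8.04 on the log2 scale with 9 settings per group, and at 6.70 to 7.97 with each sample left out in turn. Of 720 member results under settings other than leaving out 1 sample, 667 kept direction and side of the threshold, 21 lost and 14 gained a call, and 18 changed sign, none of these 18 called. The cause of these changes was not tested. The members called between the gated groups were 0 in place of 1 with arrays centred, with quantile normalization and with the 2 groups alone, and 0 to 1 when samples were left out. Without both WT 12 months replicates 2 and 4, 4 members in place of 7 were called in gated TAU and 3 in place of 7 for the TAU change beyond that of WT, and with array weights 8 in place of 5 for the APP change beyond that of WT.

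The sign changes lay in the comparisons of ungated groups. For WT age they were Ctsa (-0.0375), Ctsb (-0.0225) and Ctsh (-0.0375) with arrays centred, Ctsa (-0.068) and Ctsh (-0.011) with array weights, and Ctsc (0) and Ctss (0.0975) without WT 12 months replicates 2 and 4. For young APP they were Ctsb with array weights (-0.071) and, with the mean of Y-linked genes as covariate, Cst7 (0.41), Ctsc (0.12), Ctsh (0.11) and Ctsl (0.0302). For young TAU with that covariate they were Cst7 (0.27), Ctsb (0.11), Ctsc (0.0211), Ctsh (0.0372), Ctss (0.11) and Ctsz (0.10). With 1 sample left out, WT age ran from -0.13 to 0.17 for Ctsa, -0.0233 to 0.17 for Ctsb and -0.0783 to 0.17 for Ctsh, and young APP from -0.43 to 0.0775 for Cst7, -0.00333 to 0.30 for Ctsa, -0.075 to 0.18 for Ctsb and -0.46 to 0.03 for Ctsc.

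With the replicate block, 2344 probe sets in place of 2015 were called in gated APP, and Ctsc (0.72, adjusted p = 0.0458) and Ctss (0.47, 0.0493) passed there. Between the gated groups, where the numbers pair, it gave 224 calls in place of 206 and left Ctsl called (adjusted p = 0.01), with no member call gained or lost. The block is an effect of the replicate number shared by all 6 groups, not a paired fit of the gated groups alone. In 50 of 110 combinations of a sample and another group, the sample correlated best with its own number. Signals near background limit what Ctse can show. Ctss and Lgmn changed by small steps at high signals, and whether the signal range held these steps down was not tested.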

Other observations

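In each of the 5 groups with a sample numbered 4, that sample was the highest of its group for 0 of the 8 members, and it was the lowest, or tied for it, for 4 members in young WT, 6 in young TAU, 6 in WT at 12 months, 4 in gated APP and 4 in gated TAU. The highest values gathered in young WT replicate 2, young APP replicate 1, young TAU replicate 1, WT 12 months replicate 3, gated APP replicate 2 and gated TAU replicate 3, each highest for 5 of 8 members. The SD of all signals was 2.60 on the array of WT 12 months replicate 3 and 2.58 on that of gated APP replicate 2, the 2 largest of the study, and 2.41 and 2.48 on those of replicate 4 of the same groups. The part of the array spread in these levels was not tested.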
